A study of Mus musculus with 6 samples.

Results

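The mRNAs of 10 inflammatory cytokine and chemokine genes were examined in knee cartilage of wild-type (WT) and miR-455 null mice: the IL-1 axis genes Il1b, Il1rn and Il1r2, the cytokines Tnf and Il6, and the chemokines Ccl2, Ccl3, Cxcl2, Ccl6 and Ccl9. They were chosen by name, as members of the IL-1, TNF and IL-6 pathways and as chemokines of myeloid cells. No threshold on measured values was used, but earlier results of these data were known. All 10 were found among the 36711 gene identifiers in the files, and all 10 were among the 14145 genes abundant enough to be tested. RNA sequencing had been performed on total RNA from knee cartilage of C57/Bl6 mice aged 3 months, with 3 libraries from WT and 3 from miR-455 null animals. The null line carries a constitutive CRISPR-Cas9 deletion that takes away part of both mature forms of the microRNA and the loop between them, and it is not limited to chondrocytes. The labels name no treatment for either genotype. The labels did not state whether WT and null animals were littermates, nor whether each library came from a separate animal, so p-values below reflect the variation between the 6 libraries, which may be technical. A difference in genetic background between the groups cannot be told apart from the effect of the deletion.

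Interleukin-1β and TNF are the cytokines that start inflammatory transcription in joint tissue, acting through receptors that activate NF-κB and AP-1. Interleukin-6 signals through gp130 and STAT3, and chemokines bind receptors on leukocytes and direct their migration. In cartilage IL-1 and TNF are known for driving matrix breakdown, and in bone marrow the same genes are transcribed by neutrophils, monocytes and macrophages.

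The microRNA itself has 2 mature forms, shown because the deletion in the null mice removes part of each. Both lie on the plus strand inside the collagen gene Col27a1, miR-455-5p at chr4:63256867-63256888 and miR-455-3p at chr4:63256904-63256924 of GRCm38 (RefSeq, build GRCm38.p6). The seed, bases 2 to 8, is in capitals.
mmu-miR-455-5p: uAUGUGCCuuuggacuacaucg
mmu-miR-455-3p: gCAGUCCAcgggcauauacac
The 7 bases TGGACTG, which pair with the miR-455-3p seed, occurred in the annotated 3′ untranslated regions of Il1b, Il1r2 and Tnf, and GGCACAT, which pairs with the miR-455-5p seed, in that of Il1b. The matches, in capitals with their flanks, were read from the GENCODE transcripts of GRCm38.
Il1b, miR-455-3p match at chr2:129365013-129365019, minus strand: agtatgggcTGGACTGtttctaatgcc
Il1b, miR-455-5p match at chr2:129364882-129364888, minus strand: caagaaaccatGGCACATtctgttcaaag
Il1r2, miR-455-3p match at chr1:40125153-40125159, plus strand: ggaaagacataTGGACTGaccaagctacg
Tnf, miR-455-3p match at chr17:35199944-35199950, minus strand: ggacagtgaccTGGACTGtgggcctctca
The other 7 genes held neither match. Of the 12877 tested genes with an annotated 3′ untranslated region, 16.7% held the miR-455-3p match and 10.8% the miR-455-5p match, against 3 and 1 of the 10. A 7-base match is a description of the sequence and not a site of action.

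Abundances below are the deposited length-normalized values, so levels can be set side by side between genes. Differences between genotypes are null minus WT on the scale of log2(abundance + 0.5), from limma, with Benjamini-Hochberg adjustment over all 14145 genes. Totals of the normalized values ran from 917819 to 1135956, low values imply roughly 13960000 to 20340000 reads per library, 83.3% to 92.6% of reads aligned, and the number of genes at 0.5 or more was 13851 to 14260. The tissue label, knee cartilage with chondrocyte as its cell type, was checked against marker genes. The 8 chondrocyte markers were all detected, yet together gave between 0.00577% and 0.0140% of total abundance, while 7 erythroid markers gave 11.4% to 27.1% and 13 neutrophil markers 8.14% to 19.99%. Col2a1, the main collagen gene of cartilage, was between 18.4 and 63.8. Sox9, the transcription factor that specifies chondrocytes, was between 0.623 and 1.32, and Acan, which encodes the proteoglycan aggrecan, between 3.06 and 7.15. The levels below are therefore those of tissue in which blood and marrow transcripts outnumbered cartilage transcripts, and in such bulk RNA fewer cells of a type and less RNA per cell cannot be told apart.

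The libraries null 3 and null 1 stood apart. Null 3 had the highest level of all 13 neutrophil markers and the lowest erythroid share, and null 1 had the highest level of all 6 genes of a list of handling and dissection stress, which includes the immediate early genes Fos, Jun and Egr1. Results of the 10 genes that rest on either are given with and without it, as are the medians of the pathway lists that null 3 moved and some of their genes.

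None of the 10 genes passed an adjusted p of 0.05 in limma, where 0.0283% of all genes tested did. None passed at an unadjusted p under 0.05 either, where 5.61% of all genes did. The log2 difference was above 0 for 7 of the 10 and below 0 for 3, with a median of 0.10, against a median of 0.021 over all genes. In 1 gene, Il6, which was lower in null, the groups did not overlap, against 11.4% of all genes (6.21% of all genes higher and 5.22% lower in null).

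**Figure D1:**
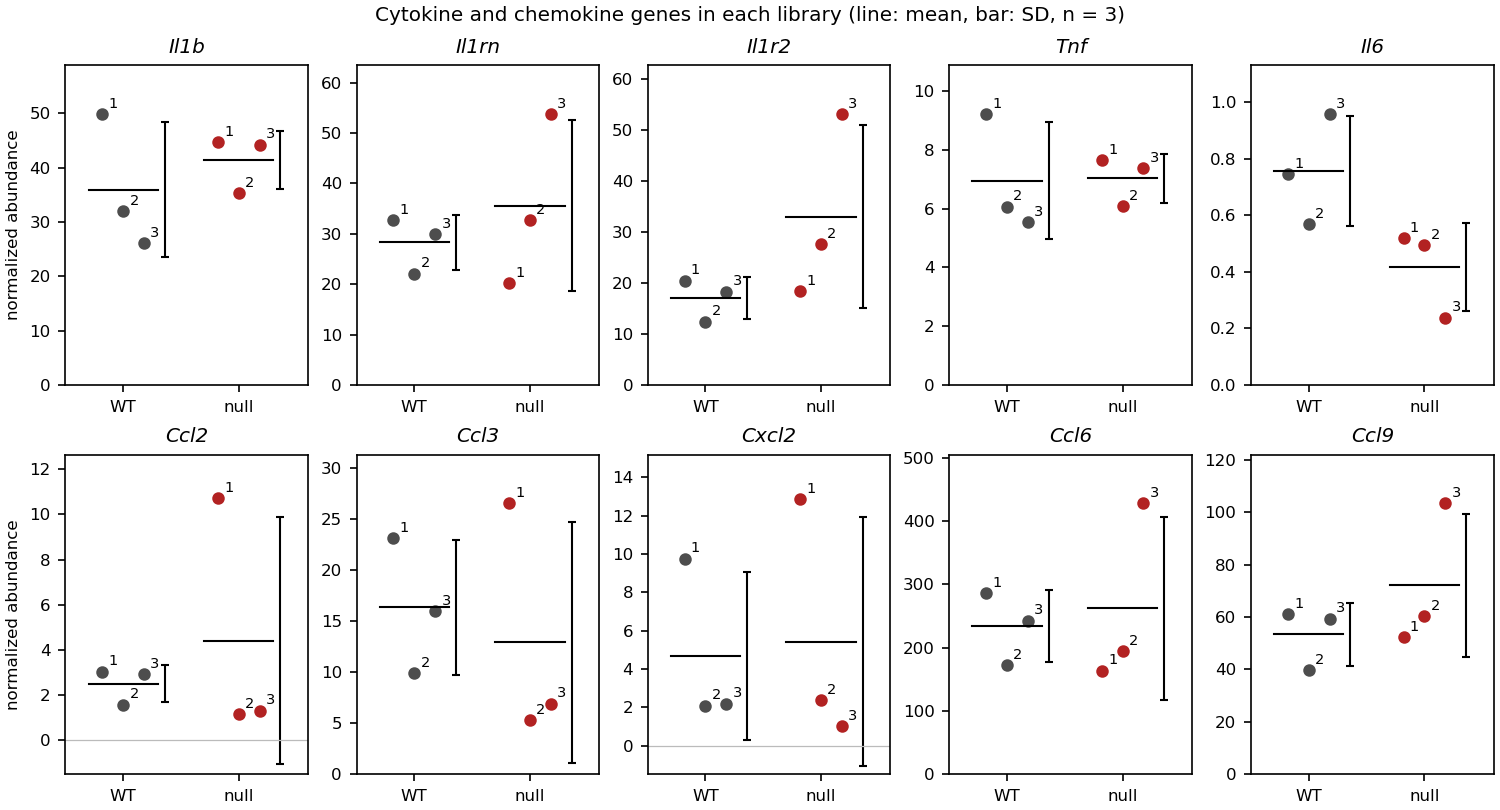
Normalized abundance (y axis, linear, a separate scale per gene) of the 10 cytokine and chemokine genes in WT (gray) and miR-455 null (red) libraries, numbered 1 to 3, with the mean as a line and the SD as a bar (n = 3). The groups overlapped for every gene but Il6, and single libraries stood above the rest for Ccl2 (null 1), Ccl6, Ccl9, Il1r2 and Il1rn (null 3).

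The genes covered a wide range of levels. Ccl6 was the most abundant, with a mean of 247.9 over the 6 libraries, more than 97.5% of the genes tested, and its lowest library (164) was above the highest Ccl9 library (103). Ccl9 followed at 62.7, Il1b at 38.6, Il1rn at 31.9 and Il1r2 at 25.0, and the ranges over libraries of each of these neighbors overlapped. Next came Ccl3 at 14.6, Tnf at 6.99, Cxcl2 at 5.05 and Ccl2 at 3.46, again with overlapping ranges. Il6 was the least abundant at 0.587, and its highest library (0.959) was below the lowest library of any other gene. Summed, the 10 genes made up 0.0320% to 0.0436% of total abundance in 5 libraries and 0.0710% in null 3, with Ccl6 alone giving 45.8% to 61.2% of the sum.

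**Figure D2:**
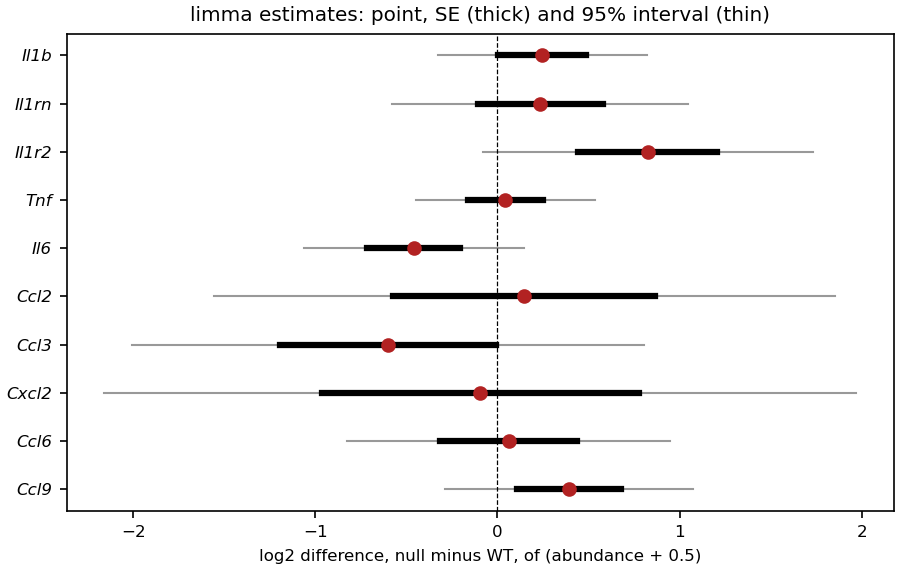
Log2 difference, null minus WT, of abundance + 0.5 (x axis) for the 10 genes, as limma estimates with the SE (thick line) and 95% interval (thin line). All 10 intervals include 0, and they are widest for Cxcl2 and Ccl2.

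Within the IL-1 axis, Il1b encodes the ligand interleukin-1β, made as a precursor that caspase-1 cleaves. The gene lies at chr2:129364570-129371139 on the minus strand. Il1b was at 49.8, 31.9 and 26.0 in WT libraries 1 to 3 and at 44.6, 35.2 and 44.2 in null libraries 1 to 3. The highest library was WT 1 and the groups overlapped. Means were 35.9 ± 12.4 in WT and 41.4 ± 5.31 in null (SD, n = 3), a log2 difference of 0.25 ± 0.24 (SE) that did not pass the test (adjusted p = 0.817). Without WT 1 the difference was 0.51, at an unadjusted p of 0.0300, and no library left out gave an adjusted p below 0.751.

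Il1rn encodes the IL-1 receptor antagonist, which occupies the signaling receptor without activating it, and lies at chr2:24336853-24351494 on the plus strand. Il1rn was at 32.7, 22.1 and 30.0 in WT against 20.2, 32.7 and 53.8 in null. The null libraries held both the lowest and the highest values. Means were 28.3 ± 5.53 and 35.6 ± 16.9, a log2 difference of 0.24 ± 0.34 (adjusted p = 0.870). Leaving out null 3 turned the sign, to −0.11.

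Il1r2 encodes the decoy receptor that binds IL-1 without signaling and is a known product of neutrophils. It lies at chr1:40074079-40125231 on the plus strand. Il1r2 was at 20.4, 12.4 and 18.3 in WT against 18.3, 27.5 and 53.1 in null. Null 2 and null 3 were above every WT library, while null 1 lay within the WT range. The ratio of means was 1.93, the largest of the 10 genes, with means of 17.05 ± 4.14 and 33.0 ± 17.999. The log2 difference was 0.83 ± 0.38, with a 95% interval from −0.080 to 1.73, and did not pass (unadjusted p = 0.0680, adjusted p = 0.809, exact two-sided permutation p = 0.2, where 0.1 is the smallest possible). It was 0.42 without null 3 and 1.17 without null 1, the latter at an adjusted p of 0.215. Without null 1 the number of genes past an unadjusted p under 0.05 was 2480 in place of 793 over the whole table, and Il1r2 was among 3 of the 10 that passed there.

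The IL-1 ligand that matches Il1b in activity, Il1a, was lower in level, at 2.55 ± 0.141 in WT and 2.31 ± 0.654 in null. The signaling receptor Il1r1 was at 3.48 ± 0.141 and 3.71 ± 0.967, and its accessory protein Il1rap at 3.28 ± 0.0993 and 4.89 ± 1.73. The decoy was thus more abundant than the signaling receptor in all 6 libraries. Pycard, the inflammasome adaptor, was at 53.2 ± 7.41 and 60.9 ± 8.31, and Gsdmd, the pore-forming gasdermin D, at 55.9 ± 2.38 and 55.3 ± 13.7. Il1f9, which encodes interleukin-36γ, reached 83.5 in null 3 against 22.4 to 38.8 in the other libraries, and its log2 difference was 0.64 with null 3 and 0.14 without it. Of the 22 tested genes of IL-1 family and signaling other than the 3 above, 0 passed by limma at the adjusted threshold and 0 at an unadjusted p under 0.05, with 16 above 0, 6 below 0 and a median log2 difference of 0.18, or 0.043 without null 3. Null 3 was the highest library for 14 of the 22, where it was the highest for 28.3% of all genes. Leaving out null 1 gave a median of 0.29, and 7 of the 22 then had an unadjusted p under 0.05 by limma. The share of all genes that did so was 17.5%.

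Tnf, the founding cytokine of the TNF family, lies at chr17:35199381-35202007 on the minus strand. Its abundance was 9.23, 6.07 and 5.55 in WT against 7.66, 6.08 and 7.38 in null. The groups overlapped throughout, and the highest library was only 1.66 times the lowest, the narrowest spread of the 10. Means were 6.95 ± 1.99 and 7.04 ± 0.842, a log2 difference of 0.043 ± 0.21 with a 95% interval from −0.45 to 0.53 (adjusted p = 0.964). Its receptors were more abundant than Tnf itself in every library. Tnfrsf1a, the widely expressed receptor, was at 53.0, 52.2 and 50.7 in WT against 48.2, 57.3 and 104 in null, with null 3 apart from the other 5 (log2 difference 0.34, and 0.016 without null 3). Tnfrsf1b was at 20.2 ± 1.10 and 24.5 ± 9.68, and Adam17, which encodes the protease that releases TNF from the membrane, at 13.4 ± 1.12 and 16.6 ± 2.35. Tnfaip8 and Tnfaip2, named for their induction by TNF, had means of 66.1 ± 6.07 and 57.3 ± 8.39 in WT against 72.0 ± 19.2 and 61.3 ± 7.31 in null. None of the 21 genes of TNF family and receptors passed by limma, adjusted or at an unadjusted p under 0.05. Their median log2 difference was 0.12, with 15 above 0, and null 3 was the highest library for 15 of them, against 28.3% of all genes. Without null 3 the median was −0.0073. Leaving out null 1 gave a median of 0.26, with 1 gene at an unadjusted p under 0.05 by limma, where 17.5% of all genes were.

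Il6 encodes the cytokine interleukin-6, at chr5:30013114-30019981 on the plus strand. Its abundance was 0.747, 0.568 and 0.959 in WT against 0.519, 0.494 and 0.238 in null. Every null library was below every WT library, but by a small margin between null 1 (0.519) and WT 2 (0.568). Such a separation, lower in null, was seen for 5.22% of all genes. Means were 0.758 ± 0.196 and 0.417 ± 0.155 (SD, n = 3), a ratio of 0.550, with an exact two-sided permutation p of 0.1, the smallest possible here. The log2 difference of −0.46 ± 0.26 did not pass in limma (unadjusted p = 0.116, adjusted p = 0.809), and with the 0.5 added to such low values it understates the ratio. Few reads stood behind these values. Estimated from the worth of 1 read, they came to 2 to 10 reads per library if all belonged to the shortest coding transcript and to 11 to 48 if all belonged to the longest. With a library left out the difference ran from −0.57 to −0.31. Its sign could not turn there, since the groups did not overlap.

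The receptors and signaling genes of the IL-6 pathway were more abundant than Il6. Il6ra, which encodes the ligand-binding chain, had means of 12.9 ± 0.366 in WT and 20.7 ± 11.2 in null, with 32.9 in null 3, and its log2 difference of 0.52 was 0.13 without that library. Il6st, which encodes gp130, was at 12.9 ± 2.86 and 16.3 ± 1.56. Jak1 and Jak2, the kinases bound to gp130, had means of 47.5 ± 2.09 and 23.5 ± 1.01 in WT against 53.2 ± 10.2 and 22.5 ± 2.03 in null. Stat3 was at 28.7, 28.9 and 29.3 in WT against 26.6, 40.7 and 54.2 in null, so that 1 null library was below WT and the others above (log2 difference 0.42, and 0.18 without null 3). Of the 15 tested genes of the list, 2 had an unadjusted p under 0.05, both higher in null, against 3.19% of all genes, and neither passed adjustment. Lifr, the receptor for leukemia inhibitory factor, was at 6.58, 8.81 and 6.84 in WT against 12.7, 9.53 and 11.5 in null, without overlap, as were 6.21% of all genes (log2 difference 0.57 ± 0.17, unadjusted p = 0.0109, adjusted p = 0.809). Socs3, a STAT3-induced inhibitor of gp130 signaling, was at 7.58, 10.2 and 7.88 in WT against 10.4, 16.1 and 11.4 in null (log2 difference 0.53 ± 0.20, unadjusted p = 0.0330, adjusted p = 0.809). Groups without overlap, higher in null, were seen for 3 of the 15, Lifr, Socs3 and Osmr, against 6.21% of all genes. Margins were small for Socs3 (10.2 in WT 2 against 10.4 in null 1) and Osmr (1.42 in WT 1 against 1.46 in null 3). In the list of IL-6 family and signaling genes, 10 were above 0 and 5 below, with a median log2 difference of 0.15, or 0.12 without null 3. When null 1 was left out the median was 0.15. Then 6 of the 15 had an unadjusted p under 0.05 by limma, where 17.5% of all genes did.

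The chemokines fell into 2 patterns over libraries, which differed in the null library that was highest. In the first, Ccl2, Ccl3 and Cxcl2 were highest in null 1. Among the WT libraries they were highest in WT 1, but so were Ccl6 and Ccl9 of the second pattern. Ccl2 encodes the monocyte attractant MCP-1, the main ligand of Ccr2, and lies at chr11:82035571-82037453 on the plus strand. With an estimated 16 to 135 reads per library, its abundance was 3.04, 1.57 and 2.91 in WT against 10.7, 1.17 and 1.31 in null. Null 1 was above all other libraries, and null 2 and null 3 were below all WT libraries. The means, 2.51 ± 0.812 and 4.40 ± 5.47, gave a ratio of 1.75, yet the log2 difference was only 0.15 ± 0.72 (adjusted p = 0.965). Without null 1 it was −0.75, with an unadjusted p of 0.0388 and an adjusted p of 0.265, and without WT 2 it was −0.10, so that leaving out either library turned the sign.

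Ccl3 encodes MIP-1α, a ligand of Ccr1, and lies at chr11:83647844-83649355 on the minus strand. Ccl3 was at 23.1, 9.92 and 15.97 in WT against 26.5, 5.31 and 6.90 in null. As with Ccl2, null 1 was the highest library and the other null libraries were below all WT libraries. Means were 16.3 ± 6.61 and 12.9 ± 11.8, with a log2 difference of −0.60 ± 0.59 (adjusted p = 0.817). Without null 1 the difference was −1.28, at an unadjusted p of 0.010 and an adjusted p of 0.211.

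Cxcl2 encodes MIP-2, a neutrophil attractant that binds Cxcr2, and lies at chr5:90903871-90905938 on the plus strand. Cxcl2 was at 9.75, 2.09 and 2.20 in WT against 12.9, 2.38 and 1.03 in null. The highest library was 12.5 times the lowest, the widest spread of the 10, and WT 1 and null 1 were both over 4 times any other library. Means were 4.68 ± 4.39 and 5.42 ± 6.48, with a log2 difference of −0.094 ± 0.87 (adjusted p = 0.981). The sign turned when WT 1 (0.56), null 2 (0.12) or null 3 (0.58) was left out and when libraries were scaled to the same total (0.016). Of the 31-base words in Cxcl2 transcripts 7.59% also occur in those of Cxcl3, but Cxcl3 was at most 0.220 in any library.

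WT 1 and null 1 were the 2 highest libraries for 5 of the 10 genes, Ccl2, Ccl3, Cxcl2, Il1b and Tnf, and for 5.13% of all genes tested. These ranks are of the deposited values, in which WT 1 had the largest total (1135956), and were not taken with totals made equal. Some margins were small. Null 1 was just above null 3 for Il1b (44.6 against 44.2) and Tnf (7.66 against 7.38), and WT 1 just above WT 3 for Ccl2 (3.04 against 2.91). In the list of handling and dissection stress genes these were the 2 highest libraries for 3 of 6, Fos, Jun and Egr1. Fos was at 148, 49.4 and 63.2 in WT against 169, 31.4 and 39.0 in null. Egr1 was at 27.2, 6.69 and 8.34 in WT against 34.5, 5.45 and 3.17 in null. Jun, which pairs with Fos to form AP-1, was at 17.4, 9.24 and 11.8 in WT against 33.0, 7.10 and 6.85 in null. These 3 genes, like Cxcl2, were highest in 1 library of each genotype, WT 1 and null 1. The other 3 genes of the list were highest in null 1 but not raised in WT 1. Atf3, a stress-induced transcription factor, was 2.09, 3.03 and 2.20 in WT against 4.91, 1.64 and 3.42 in null. The heat shock genes Hspa1a and Hspa1b were 0.818 and 1.33 in WT 1, against 0.818 to 0.935 and 1.68 to 2.26 in the other WT libraries. Averaged over the 6 genes of the list, log2 abundance relative to the 6-library mean was 0.37, −0.17 and −0.14 in WT and 1.22, −0.66 and −0.62 in null, with summed abundance of 71.6 to 197 in WT and 47.5 to 248 in null. All 6 genes of the list were above 0 in every library. After this mean was subtracted library by library, the range of log2 values over libraries was 1.05 in place of 2.74 for Ccl2, 0.99 in place of 2.22 for Ccl3, and 1.75 in place of 3.13 for Cxcl2. For Il1b and Tnf it was wider, 1.83 in place of 0.92 and 1.80 in place of 0.69. The range was also wider for the genes without this pattern (1.88 in place of 0.98 for Il6, and 2.82 to 3.35 in place of 1.37 to 2.05 for the other 4). Ccl2, Ccl3 and Cxcl2 were grouped by their peak in null 1, where the stress list also peaks. A narrower range for these chemokines was therefore favored in advance by that grouping, and no conclusion is drawn from it. In null 1 the 6 skeletal muscle markers summed to 139.9, against 35.2 to 60.4 in the other libraries, and the 7 markers of the superficial zone and synovium to 1292, against 509 to 697. WT 1 was not high in either sum (35.2 and 567). The part of handling or of these tissues in the levels of these chemokines was not tested.

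**Figure D3:**
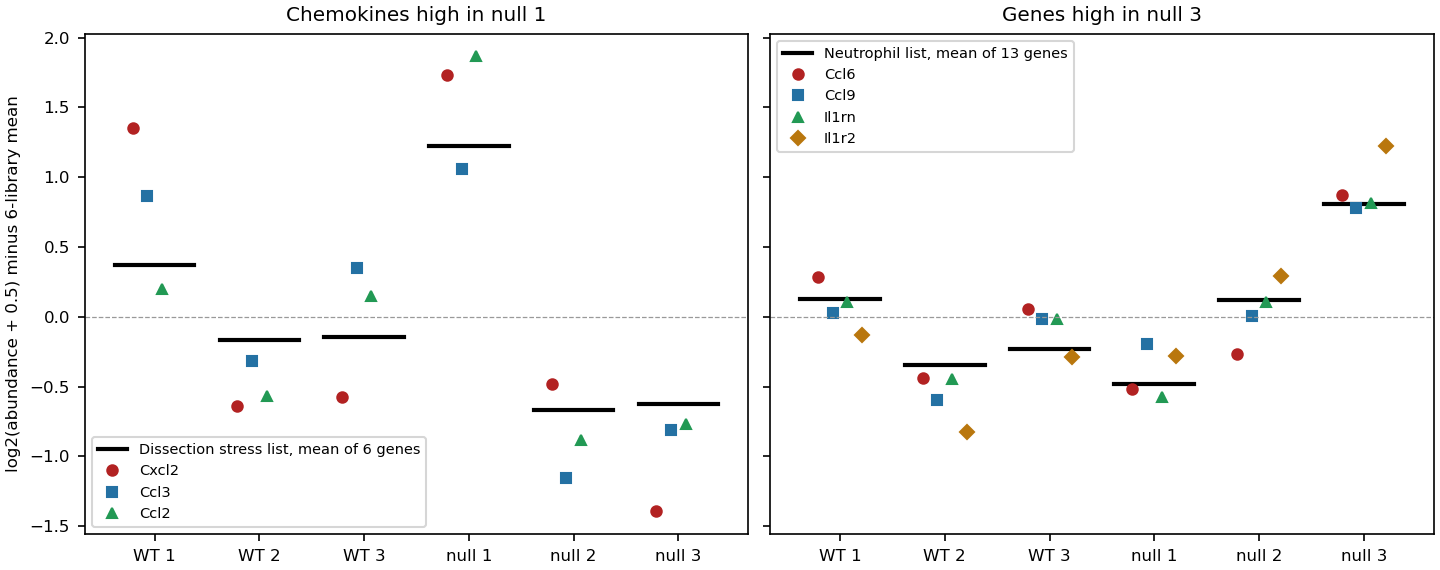
Log2(abundance + 0.5) minus the 6-library mean (y axis) in each library (x axis) for Cxcl2, Ccl3 and Ccl2 with the mean of the 6 dissection stress genes (left, black bars), and for Ccl6, Ccl9, Il1rn and Il1r2 with the mean of the 13 neutrophil markers (right, black bars). The left-hand genes are highest in null 1 and the right-hand genes in null 3, as are their lists (1.22 and 0.81).

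Other genes outside the 10 shared the first pattern. Ccl4, the neighbor and close relative of Ccl3, was at 8.89, 4.89 and 5.83 in WT against 11.6, 3.11 and 2.99 in null. Osm, which encodes the IL-6 family cytokine oncostatin M, was at 22.2, 9.70 and 9.88 in WT against 27.1, 10.3 and 8.88 in null. Zfp36, whose protein tristetraprolin promotes decay of cytokine mRNAs, was at 93.5, 50.8 and 75.4 in WT against 95.8, 44.3 and 66.6 in null. In each of these the 2 highest values were those of WT 1 and null 1. Over all 146 tested pathway genes 12 had these as the 2 highest libraries, against 5.13% of all genes tested.

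In the second pattern, Ccl6 and Ccl9 were highest in null 3. They encode related CC chemokines of mouse myeloid cells, both ligands of Ccr1, and lie 9245 bases apart on the minus strand of chromosome 11, Ccl9 at chr11:83572919-83578636 and Ccl6 at chr11:83587882-83593087. Ccl6 was at 286, 173 and 243 in WT against 164, 195 and 428 in null. The null libraries held both extremes. Means were 234 ± 57.0 and 262 ± 145, with a log2 difference of 0.062 ± 0.38 (adjusted p = 0.973), and leaving out null 3 turned it to −0.36.

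Ccl9 was at 61.1, 39.6 and 59.4 in WT against 52.4, 60.4 and 103 in null. Only null 3 was above the WT range. Means were 53.4 ± 11.9 and 72.1 ± 27.5, with a log2 difference of 0.39 ± 0.29 (adjusted p = 0.809), which was 0.10 without null 3 and 0.59 without null 1.

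Null 3 was the highest library for 4 of the 10 genes, Il1rn, Il1r2, Ccl6 and Ccl9, where it was so for 28.3% of all genes. Neutrophil markers moved with them. Ly6g, a surface marker of mouse neutrophils, was at 194, 132 and 136 in WT against 107, 169 and 281 in null. Cxcr2, the receptor of Cxcl2, was at 58.0, 43.1 and 51.5 in WT against 38.6, 86.2 and 157 in null. S100a8 and S100a9, which encode calprotectin, also had their highest values in null 3 and their lowest in null 1. All 13 markers of the list were above 0 in every library, with summed abundance of 78456 to 114945 in WT and 74749 to 196931 in null. Relative to the 6-library mean, the average of their log2 values was 0.13, −0.34 and −0.23 in WT and −0.48, 0.12 and 0.81 in null. When that average was subtracted, the range over libraries was 0.32 in place of 1.39 for Il1rn, 0.53 in place of 1.37 for Ccl9, 0.67 in place of 1.38 for Ccl6, and 0.90 in place of 2.05 for Il1r2. For the other 6 genes the range was wider after the subtraction, from 1.30 in place of 0.92 for Il1b to 4.41 in place of 3.13 for Cxcl2. The 4 genes were grouped by their peak in null 3, where the marker list also peaks. Their narrower range was therefore favored in advance by that grouping, and no conclusion is drawn from it. After the subtraction the mean difference between genotypes was 0.53 for Il1r2, 0.096 for Ccl9, −0.061 for Il1rn and −0.23 for Ccl6. Before it these were 0.83, 0.39, 0.24 and 0.062, and the differences after it were not tested. The 12 monocyte and macrophage markers, all detected, summed to 1228 to 1465 in WT and to 1237 to 2115 in null, with the highest sum also in null 3. The part of neutrophil or monocyte content in these levels was not tested.

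Promoter sequence is shown for the chemokines that shared a library pattern, Cxcl2 with Ccl3 and Ccl6 with Ccl9, as the 150 bases before the RefSeq start of transcription (build GRCm38.p6). The motifs were searched on both strands from 250 bases before to 50 after the start: the NF-κB motif, AP-1 as TGANTCA, C/EBP as TTGCNNAA and the TATA box as TATAAA. Matches are in capitals.
Cxcl2, chr5:90903749-90903898, plus strand: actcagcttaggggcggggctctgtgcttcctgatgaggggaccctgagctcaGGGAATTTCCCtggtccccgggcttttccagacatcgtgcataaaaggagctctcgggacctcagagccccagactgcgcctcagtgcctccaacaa
Ccl3, chr11:83649379-83649528, minus strand: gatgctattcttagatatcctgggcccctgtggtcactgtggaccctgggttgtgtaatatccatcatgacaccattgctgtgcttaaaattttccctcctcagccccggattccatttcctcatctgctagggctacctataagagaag
Ccl6, chr11:83593088-83593237, minus strand: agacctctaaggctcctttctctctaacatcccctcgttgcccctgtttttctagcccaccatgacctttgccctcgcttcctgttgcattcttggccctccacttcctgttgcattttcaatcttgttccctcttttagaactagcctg
Ccl9, chr11:83578637-83578786, minus strand: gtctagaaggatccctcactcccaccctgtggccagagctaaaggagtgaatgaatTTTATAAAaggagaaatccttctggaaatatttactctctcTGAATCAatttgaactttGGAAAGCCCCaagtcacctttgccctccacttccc
Cxcl2 held an NF-κB match on each strand, overlapping one another, from base −97 to −87. In Ccl9 an NF-κB match, an AP-1 match and overlapping TATA matches were found, while Ccl3 and Ccl6 held no match to any of these motifs. Over 11 promoter windows that the RefSeq table gave for 9 of the 10 genes, NF-κB matched in 3 (Il6, Cxcl2 and Ccl9), AP-1 in 3, C/EBP in 1 and TATA in 4. Of all 32851 promoters in the table, 4.51% held the NF-κB match, 7.81% AP-1, 10.8% C/EBP and 13.6% TATA. The Ccl2 promoter was not examined here.

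Among all 24 chemokine ligand genes tested, Ccl6 ranked 4 and Ccl9 ranked 5 by mean abundance, after the platelet chemokines Ppbp and Pf4 and the marrow stromal chemokine Cxcl12. Ccl3 ranked 8, Cxcl2 11 and Ccl2 15. Cxcl12 was at 362 ± 57.8 in WT and 412 ± 12.6 in null, Ppbp at 440 ± 45.1 and 348 ± 54.1, and Pf4 at 385 ± 29.4 and 291 ± 101. Cxcl1, which encodes KC, another neutrophil attractant, was below the level for testing, at 0.0257 to 0.491.

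**Figure D4:**
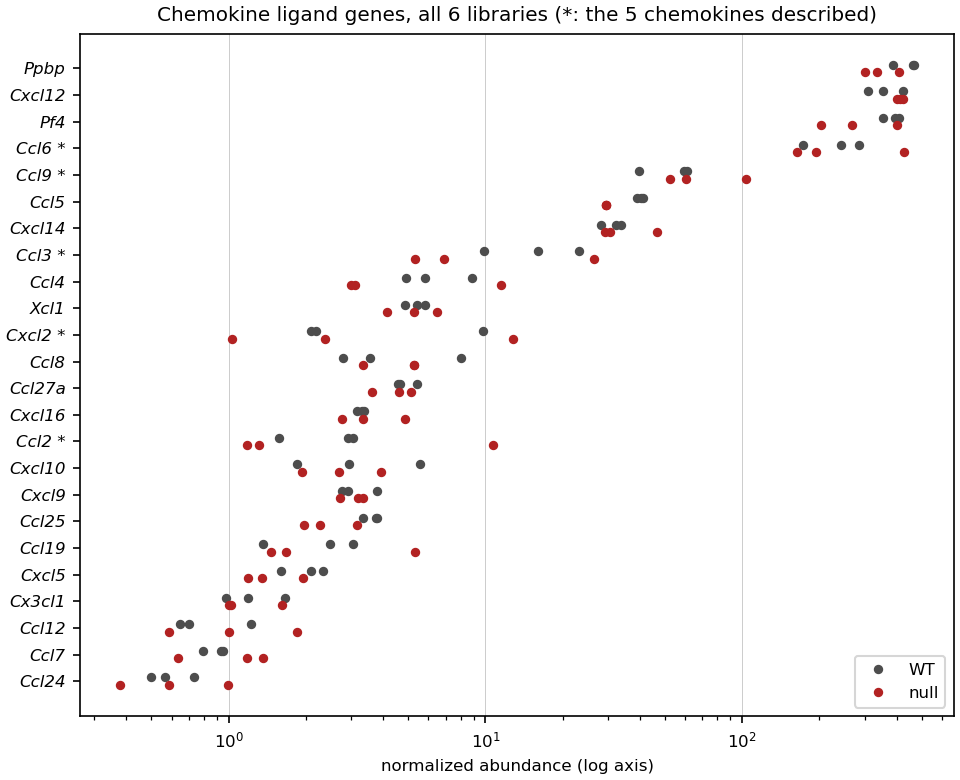
Normalized abundance (x axis, log scale) of the 24 chemokine ligand genes tested, in WT (gray, upper points) and null (red, lower points) libraries, sorted by mean. Ccl6 and Ccl9 are the 4th and 5th most abundant, and Ccl5 shows 2 tight, separate groups near 40 and 29.

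Ccl5, which encodes RANTES and is known from T and natural killer cells, stood out among the other chemokines by its small spread. It was at 41.2, 38.9 and 40.4 in WT against 29.5, 29.4 and 29.5 in null. Every null library was below every WT library, a separation that 5.22% of all genes showed, and the SD within each genotype was at most 1.17. The log2 difference was −0.44 ± 0.095, with an unadjusted p of 0.00242 that did not pass adjustment over all genes (adjusted p = 0.809). All 5 markers of T and natural killer cells also had a log2 difference below 0, with summed abundance of 85.8 to 97.7 in WT and 76.0 to 88.7 in null and none at 0, and their part in the level of Ccl5 was not tested. Ccl25, a thymic and gut chemokine, was at 3.75, 3.77 and 3.34 in WT against 3.18, 1.96 and 2.26 in null (unadjusted p = 0.0354, adjusted p = 0.809). Ccl8, another ligand for monocyte receptors, was at 4.78 ± 2.82 and 4.62 ± 1.12. Of the 9 other CC chemokines tested 5 were above 0 and 4 below, and of the 10 other CXC, CX3C and XC chemokines 3 were above and 7 below. By limma 0 of either were past adjustment and 2 (Ccl5 and Ccl25) were past an unadjusted p under 0.05, against 5.61% of all genes.

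The receptors of these chemokines were examined as well. Ccr1, which binds Ccl3, Ccl6 and Ccl9, was at 30.6, 25.5 and 32.9 in WT against 27.2, 46.1 and 72.9 in null, so that null 2 and null 3 were above WT and null 1 was not (log2 difference 0.61, and 0.26 without null 3). Ccr2, the receptor of Ccl2, was at 87.3 ± 3.59 and 100.4 ± 24.0, and Cxcr4, the receptor of Cxcl12, at 157 ± 9.17 and 176 ± 47.1. Ccr7, which guides lymphocytes and dendritic cells to lymph nodes, was at 3.23, 4.62 and 5.84 in WT against 3.15, 2.92 and 1.98 in null, without overlap but by a narrow margin, a separation that 5.22% of all genes showed (unadjusted p = 0.0331, adjusted p = 0.809). Of the 19 chemokine receptors tested, 11 were above 0 and 8 below, and Ccr7 was the 1 with an unadjusted p under 0.05, against 5.61% of all genes.

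Genes of NF-κB and its feedback, which IL-1 and TNF are known to induce, were also examined. Nfkbia, the inhibitor IκBα, was at 49.5, 49.8 and 55.0 in WT against 51.2, 55.2 and 76.9 in null. Birc3, which encodes an inhibitor of apoptosis, was at 39.0 ± 1.51 and 45.2 ± 8.97. Bcl3, an atypical IκB protein, was at 6.79, 11.7 and 10.2 in WT against 13.1, 15.1 and 11.7 in null (unadjusted p = 0.0590, adjusted p = 0.809). The groups overlapped for all 20 genes of the list, of which 13 were above 0 and 7 below, with a median log2 difference of 0.039, or −0.017 without null 3. By limma 0 of them passed, whether adjusted or at an unadjusted p under 0.05. When null 1 was left out the median was 0.080, and 2 had an unadjusted p under 0.05 by limma. The share of all genes that did so was 17.5%.

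Over all pathway lists together, 146 of the 178 genes found were abundant enough for the test, and 4 (Ccl20, Cxcl11, Il3 and Il17a) were at 0 in all 6 libraries. By limma 0 of the 146 passed an adjusted p of 0.05, and 5 had an unadjusted p under 0.05, 2 higher (Lifr and Socs3) and 3 lower (Ccl5, Ccl25 and Ccr7), against 3.19% higher and 2.42% lower of all genes. There were 95 genes with a log2 difference above 0 and 51 below, with a median of 0.098. Null 3 was the highest library for 68 of the 146, against 28.3% of all genes, and without it the median was 0.013. Without null 1, 36 of the pathway genes had an unadjusted p under 0.05, where 17.5% of all genes did.

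**Figure D5:**
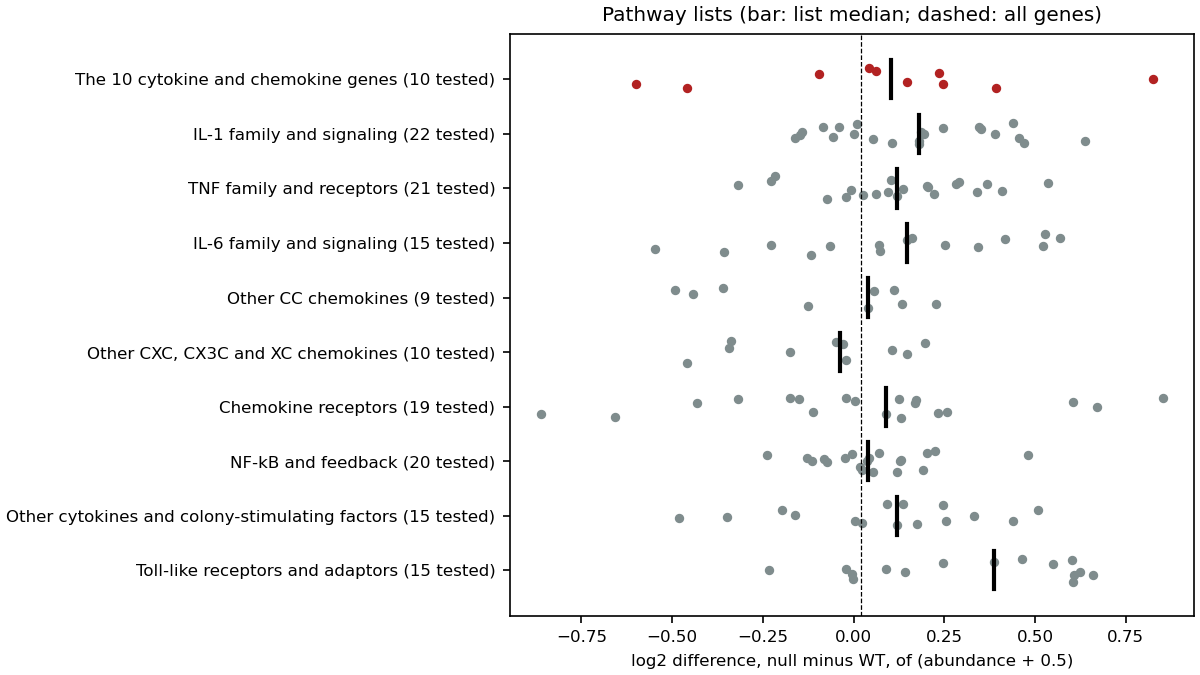
Log2 difference, null minus WT, of abundance + 0.5 (x axis) for the 10 cytokine and chemokine genes (red) and the genes of 9 pathway lists (gray), with the median of each list as a bar and that of all genes (0.021) as a dashed line. The 10 genes spread from −0.60 to 0.83, and list medians lie between −0.038 and 0.39.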

How the data were processed

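RNA sequencing of knee cartilage was taken from the deposited tables of 6 libraries, 3 per genotype. Per the labels, reads passed FastQC, Trim Galore, kallisto and sleuth on build mm10, with each version not given in the sources used here. What was deposited, a signal, was a non-negative, non-whole abundance per gene that the authors called normalized counts. Its values were length-normalized, so it was not treated as counts. Alignment rates, in percent, were deposited as well. Between 44.5% and 58.0% of the low values of single-transcript genes were within 0.05 of a whole multiple of the worth of 1 read, from which read numbers were estimated. They are approximate and no counting interval was given.

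Of 36711 identifiers 35866 were named from GENCODE, and 13535 were at 0 throughout. Genes with a mean of at least 0.5 (14145) were fitted by limma 3.58.1 (R 4.3.3, trended prior, genotype as the only term) on log2(abundance + 0.5), which understates changes of low genes. The depth and 3 libraries per group limit precision. Exact permutation tests were two-sided. The fit was tested on simulated data. Figures used matplotlib 3.10.9. The 10 genes, the pathway and marker lists were chosen with earlier results of these data known. Named besides the 10 were, of each pathway list, any gene past adjusted p 0.05, the 3 of highest mean and the smallest p, and, of the marker lists that results turn on, the first 2 listed. Cxcl1, Cxcl3, Osm, Osmr, Il1a, Il1r1, Il6ra, Il6st, Tnfrsf1b, Socs3, Ccl25, Ccr1, Ly6g, Egr1, Atf3, Hspa1a, Hspa1b, Sox9 and the genes at 0 were added after their values were seen. Alternatives were other filters, pseudocounts, scalings and priors, a replicate block, and leaving out each library. Some genes past the adjusted threshold are not reported here.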

Additional observations from a re-analysis of the deposited data

How the results depend on the processing

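Of 157 log2 differences of the 10 genes under the alternatives, 145 kept their direction and their side of the threshold, 12 turned sign and 0 passed an adjusted p of 0.05 by limma. Of the 12, 11 came from leaving out a library: Tnf without WT 2 (−0.031), WT 3 (−0.091) or null 1 (−0.017), Ccl2 without WT 2 (−0.10) or null 1 (−0.75), Ccl6 without WT 2 (−0.14) or null 3 (−0.36), Il1rn without null 3 (−0.11), and Cxcl2 without WT 1 (0.56), null 2 (0.12) or null 3 (0.58). The other was Cxcl2 with libraries scaled to the same total (0.016), a scaling that moved the median of all genes to 0.13. With a library left out, values ran from −1.28 to −0.17 for Ccl3, 0.42 to 1.17 for Il1r2, 0.10 to 0.59 for Ccl9, 0.043 to 0.51 for Il1b, −0.57 to −0.31 for Il6, −0.75 to 0.62 for Ccl2, −0.99 to 0.58 for Cxcl2, −0.36 to 0.33 for Ccl6, −0.11 to 0.58 for Il1rn and −0.091 to 0.25 for Tnf. Of the 10 genes, 0 to 3 then had an unadjusted p under 0.05 (3 without null 1, which were Ccl2, Ccl3 and Il1r2, where 17.5% of all genes did, and 1 without WT 1, Il1b, where 3.43% did), and 1 to 4 had groups without overlap, against 17.9% to 38.4% of all genes with a library left out (4 without WT 1, where 18.8% of all genes did, and 4 without null 1, where 38.4% did). With totals scaled 1 gene, Il1r2, had an unadjusted p under 0.05 (7.004% of all genes) and 3 had groups without overlap (13.9%). With totals less globins, S100a8 and S100a9 scaled these were 1, again Il1r2 (4.57%), and 2 (8.58%). With no trend in the prior 1, Il6, had an unadjusted p under 0.05 (5.67%). The cause was not tested.

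Over all genes, 4 passed adjustment, 2 without a filter, 1 with at least 5 in at least 3 libraries (451 at an unadjusted p under 0.05, among 9098 tested, a filter that removed Il6, Ccl2 and Cxcl2), and 1 to 12 without a library (12 without WT 3 and without null 1). At an unadjusted p under 0.05 there were 793, and 485 to 2480 without a library. Medians of the pathway lists without each library, an alternative added after seeing the data, stand beside the lists null 3 moved. Those of the other CC, the other CXC, CX3C and XC chemokines and the chemokine receptors ran from −0.23 to 0.063, −0.19 to 0.062 and −0.064 to 0.11. Marker genes past adjustment numbered 0, and 0 to 2 without a library (2 without null 1). With the replicate number as a block 1 gene passed adjustment and 0 of the 10 did. The block narrowed the SE from 0.87 to 0.28 for Cxcl2 and from 0.59 to 0.29 for Ccl3, and widened it only for Il6 (0.26 to 0.31). Correlations over all genes between same-numbered libraries, each taken from its genotype mean, were −0.11, 0.043 and −0.025. Whether same-numbered libraries were handled together was not tested. Few reads limit Il6.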

Other observations

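Toll-like receptors sense microbial products and induce the cytokines described. A list of them, with the co-receptors and adaptors Cd14, Ly96, Ticam1, Ticam2 and Tirap, had a median log2 difference of 0.39 over 15 genes, the highest of the 9 pathway lists, with 11 above 0 and 4 below. Without null 3 the median was 0.17. With all 6 libraries none passed by limma, adjusted or at an unadjusted p under 0.05. Without null 1 the median was 0.62, with 13 above 0. There 8 of the 15 had an unadjusted p under 0.05 by limma, where 17.5% of all genes did, and 0 passed adjustment. Tlr13, a sensor of bacterial ribosomal RNA in mice, was at 13.4, 11.7 and 12.98 in WT against 10.4, 19.6 and 36.3 in null. Tlr4, the receptor for lipopolysaccharide, was at 4.68, 4.54 and 3.79 in WT against 4.48, 7.06 and 9.90 in null. Tlr2 was at 8.60 ± 1.01 and 12.5 ± 4.47, and Tlr7 at 7.13 ± 2.19 and 9.71 ± 4.26. Null 3 was the highest library for 11 of the 15, against 28.3% of all genes, and neutrophil markers were highest there too. The part of neutrophil content in these levels was not tested.

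Of 15 other cytokines and colony-stimulating factors tested, 11 were above 0 and 4 below, with a median of 0.12 (−0.018 without null 3). By limma 0 were past an adjusted p of 0.05 or an unadjusted p under 0.05. When null 1 was left out the median was 0.098, and 2 had an unadjusted p under 0.05 by limma, where 17.5% of all genes did. Spp1, which encodes osteopontin, was at 242, 392 and 446 in WT against 440, 310 and 448 in null, with overlapping groups. Hmgb1, a chromatin protein that acts as an alarm signal outside cells, was at 409 ± 11.5 and 411 ± 27.1, and Mif at 121 ± 4.10 and 109 ± 14.6. Il12a, a subunit of interleukin-12 and interleukin-35, was at 9.01, 9.91 and 11.4 in WT against 9.36, 7.58 and 4.93 in null (unadjusted p = 0.0755, adjusted p = 0.809).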
